A study of Danio rerio with 4 samples.

Results

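The genes for cytosolic and mitochondrial heat shock proteins, their co-chaperones and the heat shock factors were followed in the liver of fasting zebrafish larvae with and without lipofermata, an inhibitor of the long-chain fatty acid transporter SLC27A2 (FATP2). Members were picked by gene name: hspa, hsp70, hsp90a, hspd1, hspe1, hsph, dnaja, dnajb, dnajc, stip1, ahsa1 and the numbered hspb, hsf and bag genes. This choice was made with earlier results of these data known. Of 32058 gene rows 99 matched, and 6 endoplasmic reticulum (ER) stress genes among them were left out (hspa5, dnajb9a, dnajb9b, dnajb11, dnajc3a and dnajc3b), which left 93 members. The name rule still keeps other chaperones of the ER, such as dnajc10 and hspa13, and hsf2bp, which is named for binding Hsf2 and is not itself a heat shock factor.
Heat shock proteins are chaperones that bind unfolded stretches of other proteins. In the cytosol, J proteins (Hsp40, the dnaj genes) hand clients to Hsp70, nucleotide exchange factors such as Hsp110 and the Bag proteins release them, and Stip1 passes some of them on to Hsp90. In mitochondria, Hspa9 helps to import proteins and the chaperonin of Hspd1 and Hspe1 folds them. Under heat or other protein damage, heat shock factor 1 switches on many of these genes, while hspa8 and hsp90ab1 are also made in unstressed cells.
All 4 libraries were from livers of AB zebrafish at 6 dpf, kept without food from 4 dpf. The vehicle group (2 libraries) received DMSO and the lipofermata group (2 libraries) 5 μM lipofermata, each for 48 h. Each library is a pool of the livers of 30 larvae, and no source says that the 2 replicates of a group came from separate clutches, so p-values measure the spread between these pools. A bulk liver holds several cell types, and fewer cells of a type cannot be told apart from less RNA per cell.
The libraries held 14997821 to 19368695 counts per library, and 14925 genes had enough counts to be tested, 72 of the members among them. Values are CPM (counts scaled to a common library size, with edgeR's TMM factors). The test was edgeR's quasi-likelihood F test, with p-values adjusted by Benjamini and Hochberg's method over the 14925 genes and called at 0.1. A fold change is given on the log2 scale as lipofermata against vehicle with its standard error (SE). For a single value, 2 pools against 2 allow an exact permutation test (two-sided) no p under 0.333. All 19 tested hepatocyte markers had lower values with lipofermata and 10 of them fell. Of 25 tested endothelial markers 22 fell and 1 rose, and all 16 genes of a proliferation list rose. Of 15 tested stellate cell and fibroblast markers 11 fell, and of 10 tested epidermis markers 7 fell and 1 rose. Of 13 tested macrophage markers 6 fell and of 12 tested muscle markers 5 fell. The summed level of both lists was highest in vehicle replicate 1. The macrophage sum of vehicle replicate 2 (44.1 CPM) lay below both lipofermata libraries (49.0 and 55.5 CPM). Of 12 tested biliary markers 5 fell and 4 rose. Over all genes tested, 16.9% fell and 16.6% rose. The part of these lists in the results below was not tested. No marker of the eye lens, a tissue rich in small heat shock proteins, had enough counts to be tested.

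With lipofermata, 20 of the 72 tested members rose, 9 fell and 43 were not called. Over all genes tested, 33.5% were called, 16.6% higher and 16.9% lower, beside 27.8% and 12.5% of the tested members. The median log2 fold change was 0.28 for the members and -0.03 for all genes tested. At least 2-fold changes were seen in 4 members that rose (hsp90aa1.2, hspa4a, hsp70l and dnajc11b) and 6 that fell (dnajc24, hspa12a, hspa12b, dnajb1b, dnajc16 and hsf2), where 6.69% and 8.62% of all genes changed this much. The groups did not overlap for 36 members that were higher and 15 that were lower with lipofermata, and for 32.2% and 32.9% of all genes. All 29 called members are among these.
The summed level of the set depended on the scaling. Of all counts, the 93 members took 1.297% and 1.23% with vehicle and 1.63% and 1.67% with lipofermata, so that the lipofermata libraries were higher. After TMM scaling their sum was 13930.0 and 15066 CPM with vehicle and 14074 and 14711 CPM with lipofermata, and the groups overlapped. The constitutive genes hspa8 and hsp90ab1 made up 84.7% and 86.3% of the members' counts with vehicle, and 80.9% and 81.9% with lipofermata, as counts that are not corrected for gene length.
Scaled by total counts alone, under which the median gene lies 0.39 higher on the log2 scale, 41 members were higher and 3 lower, while 34.1% and 7.92% of all genes were. Every direction is thus relative to the bulk of genes. Leaving out lipofermata replicate 1, 8 members rose and 4 fell (7.24% and 8.24% of all genes), and without lipofermata replicate 2, 8 rose and 5 fell (8.50% and 9.30%). Of the 29 calls, 7 held under every alternative tried: hspa4a, hsp90aa1.2, hsp70l and dnajc8 among those that rose, and hspa12a, hspa12b and hsf2 among those that fell. No called member changed direction under any of them.

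**Figure D1:**
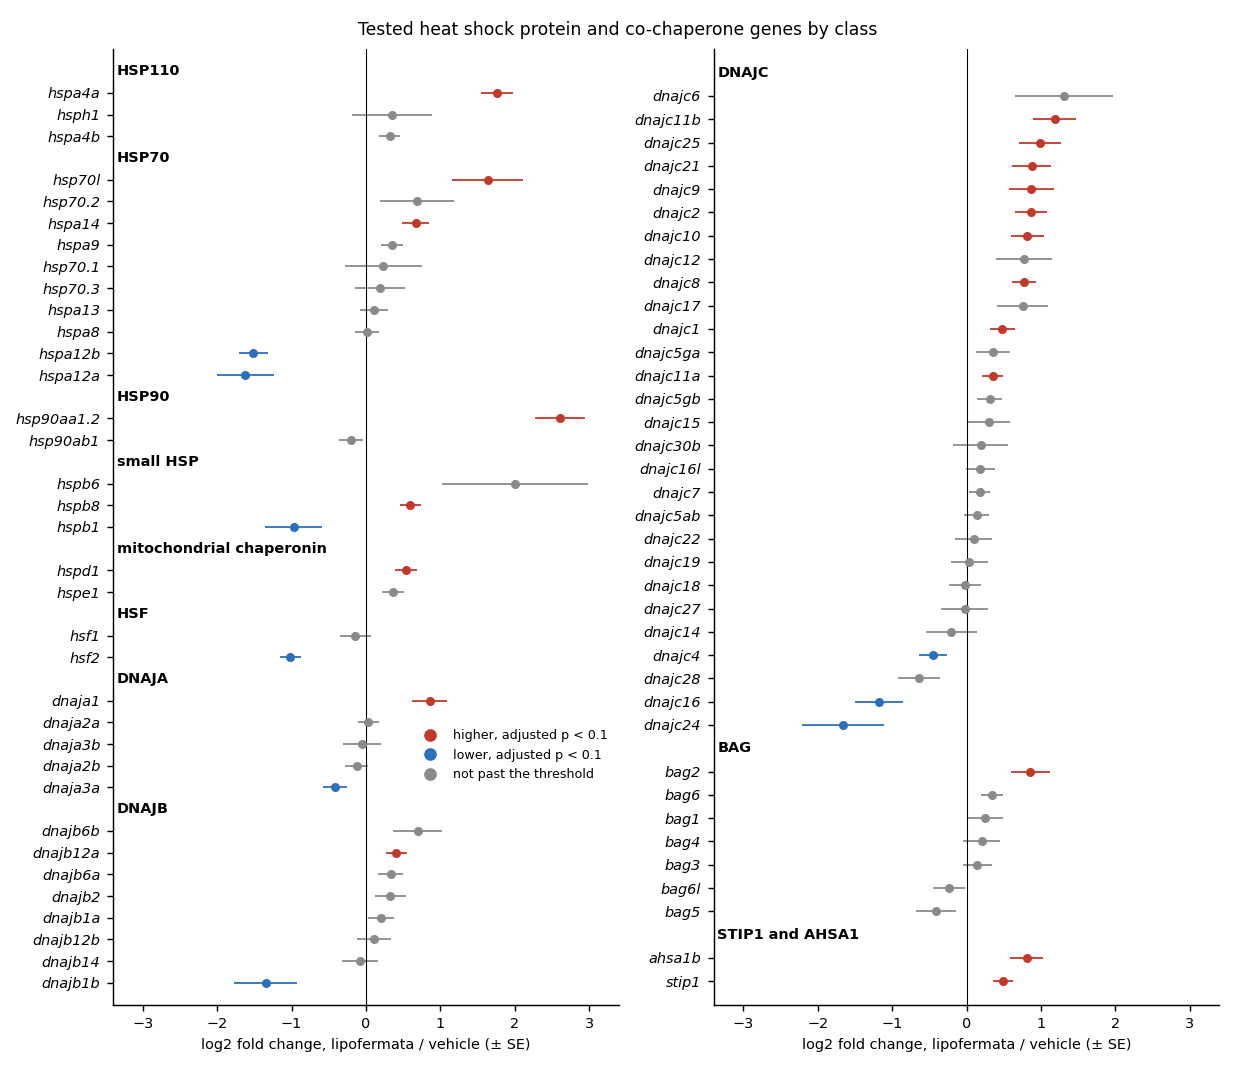
Log2 fold change (x axis, lipofermata against vehicle, ± SE) of each of the 72 tested members, grouped by class. Red points are the 20 that rose, blue points the 9 that fell, and grey points the 43 that did not pass the test. The highest value is 2.61 for hsp90aa1.2 and the lowest -1.66 for dnajc24.

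The 2 tested genes for cytosolic Hsp90 behaved differently. The gene hsp90aa1.2 (ENSDARG00000024746), a form of Hsp90α, the inducible isoform in mammals, was at 26.7 and 10.3 CPM in the vehicle libraries and at 127 and 101 CPM with lipofermata. The lowest lipofermata library was well above both vehicle libraries. The mean rose from 18.5 ± 11.6 to 114 ± 18.5 CPM (SD, n = 2), 6.09-fold, a log2 fold change of 2.61 (SE 0.33, adjusted p = 5.2e-04 by edgeR's quasi-likelihood test). No other tested member changed by as much as hsp90aa1.2 rose. The size of this rise depended on which vehicle library was kept. On the log2 scale it was 3.48 against replicate 2 only, and 2.1 against replicate 1 only.
The gene hsp90ab1 (ENSDARG00000029150), for the constitutive Hsp90β, had 5581 and 6259 CPM with vehicle and 5002 and 5309.9 CPM with lipofermata. Its log2 fold change was -0.20 (95% interval -0.56 to 0.16, adjusted p = 0.40 from the same test), and it turned to 0.19 when scaled by total counts. Counts of hsp90aa1.2 came to 0.478% and 0.164% of those of hsp90ab1 in the vehicle libraries, and to 2.55% and 1.91% of them with lipofermata. This ratio is taken within a library and does not depend on scaling. It differed by 2.98 on the log2 scale (SE 0.80, exact permutation p = 0.333, the smallest that 2 against 2 allows).
The neighbouring copy hsp90aa1.1, known in zebrafish for its role in muscle, had 8, 0, 3 and 7 counts in the 4 libraries and was not tested. Its sequence is close to that of hsp90aa1.2 and how shared reads were counted is not given in the sources used here, so the split between these copies is uncertain.

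**Figure D2:**
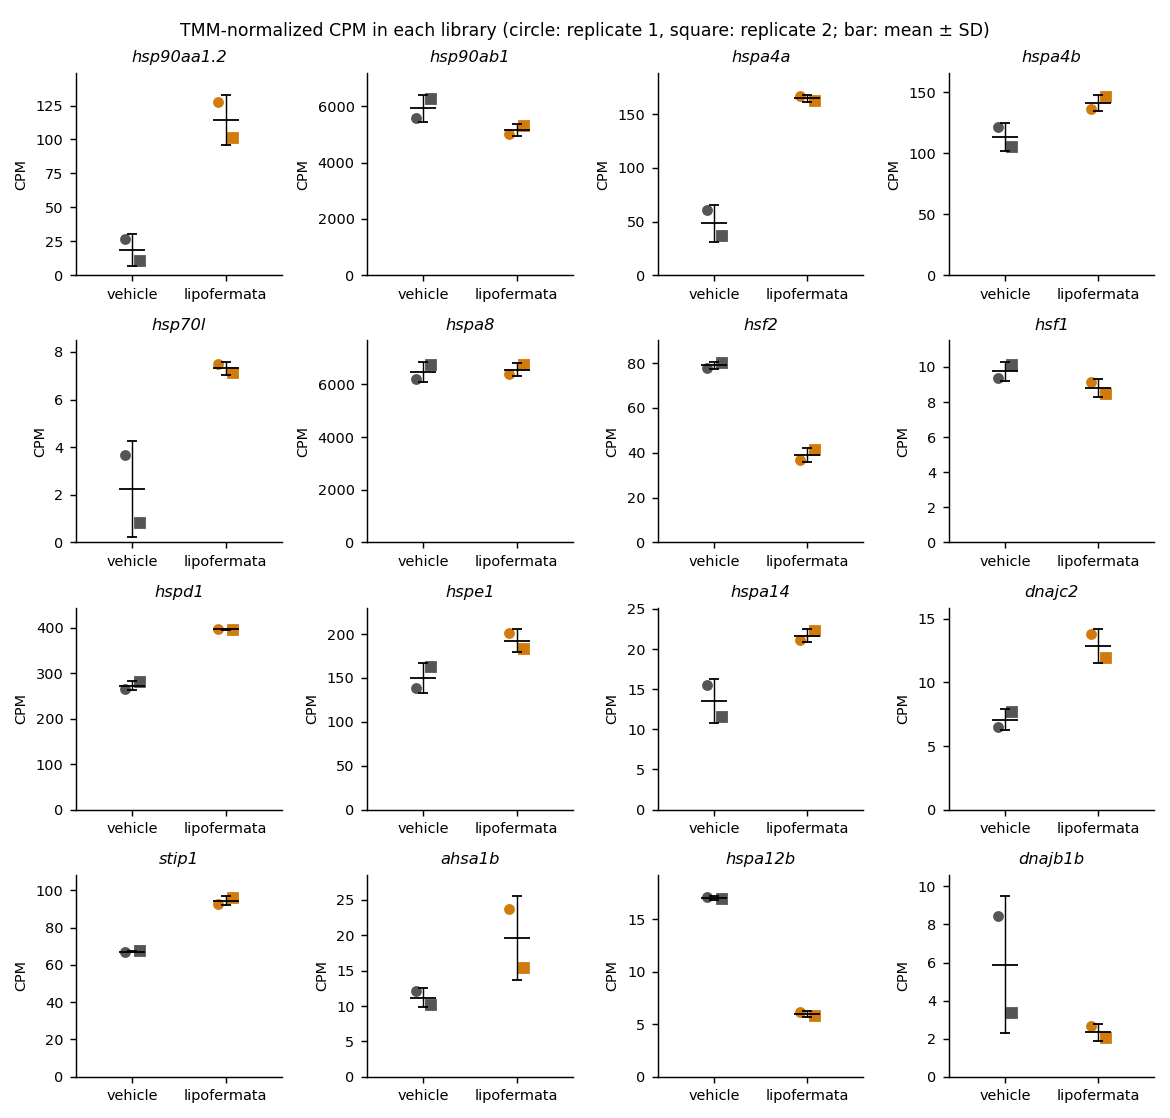
TMM-normalized CPM (y axis, linear and from 0) of 16 members in each vehicle (grey) and lipofermata (orange) library, with the mean and SD of the 2 libraries as bars. The lipofermata libraries stand above both vehicle libraries for hsp90aa1.2, hspa4a, hspa4b, hsp70l, hspd1, hspe1, hspa14, dnajc2, stip1 and ahsa1b. They stand below them for hsp90ab1, hsf1, hsf2, hspa12b and dnajb1b, while hspa8 overlaps. Of the genes that stand apart, hspa4b, hspe1, hsp90ab1 and hsf1 were not called.

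Both tested genes of the stip1 and ahsa1 class rose, where 16.6% of all genes did. The gene stip1 (ENSDARG00000004906), whose product bridges Hsp70 and Hsp90, was at 66.8 and 67.5 CPM with vehicle and at 92.6 and 96.1 CPM with lipofermata, a log2 fold change of 0.49 (SE 0.14, adjusted p = 0.024 by edgeR's quasi-likelihood test). The gene ahsa1b (ENSDARG00000100317), for the activator of the Hsp90 ATPase, went from 12.1 and 10.2 CPM to 23.8 and 15.4 CPM, a log2 fold change of 0.81 (SE 0.23, adjusted p = 0.026 from the same test). In both, the groups did not overlap. Without lipofermata replicate 1 neither passed (stip1, adjusted p = 0.18; ahsa1b, 0.47 on the log2 scale with adjusted p = 0.35), and without lipofermata replicate 2 stip1 did not (adjusted p = 0.22). The copy ahsa1a had 10, 2, 6 and 2 counts and was not tested.
Many co-chaperones of Hsp90 outside the name rule rose as well. Of 20 tested, 12 rose (60%), 1 fell (5%) and 7 did not pass, beside 16.6% and 16.9% of all genes. The median was 0.54 on the log2 scale. This list and the other lists outside the rule were drawn up with earlier results of these data known. Their shares are therefore a description and not a test. The gene ptges3b, for the co-chaperone p23 that stabilizes the closed Hsp90 dimer, went from 14.7 and 7.84 CPM with vehicle to 35.0 and 30.7 CPM with lipofermata (log2 fold change 1.52). Its paralog ptges3a rose by 0.68. The gene cdc37, whose product brings kinases to Hsp90, went from 29.2 and 31.0 CPM to 55.2 and 49.7 CPM (0.80). The gene aarsd1 rose by 1.73, and ppid, for the cyclophilin Cyp40, by 0.95. The gene that fell was nudcd3 (-0.55), a call lost with total-count scaling or when either lipofermata library was left out. Among those that did not pass was fkbp5 (0.03), an immunophilin induced by glucocorticoids. With lipofermata replicate 1 left out, 6 of the list rose.

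Among the Hsp110 genes, whose products release nucleotide from Hsp70, hspa4a rose and its paralog hspa4b did not pass the test. The gene hspa4a (ENSDARG00000004754) had 60.8 and 36.2 CPM in the vehicle libraries and 167 and 163 CPM in the lipofermata libraries, which lay close together and far above vehicle. The mean rose 3.39-fold, from 48.5 ± 17.4 to 165 ± 3.15 CPM (SD, n = 2), a log2 fold change of 1.76 (SE 0.22, adjusted p = 4.3e-04 by edgeR's quasi-likelihood test). The gene hspa4b (ENSDARG00000018989) had 121 and 105 CPM with vehicle and 136 and 146 CPM with lipofermata. Its groups did not overlap, and its log2 fold change was 0.32 (95% interval -0.01 to 0.64, adjusted p = 0.14).
Within a library, hspa4a had 50.1% and 34.5% of the counts of hspa4b with vehicle, and 123% and 112% with lipofermata. These shares of counts are not corrected for gene length, so they do not order the levels of the paralogs. The difference was 1.49 on the log2 scale (SE 0.28, exact permutation p = 0.333). The heat-inducible gene hsph1 had 1.497 and 0.98 CPM with vehicle and 2.00 and 1.21 CPM with lipofermata, and its groups overlapped (adjusted p = 0.68).

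Of 10 tested Hsp70 genes, 2 rose, 2 fell and 6 did not pass. This is 20% each way, near the 16.6% and 16.9% of all genes. The number that rose was 5 without vehicle replicate 1 and 1 without either lipofermata library. The constitutive cytosolic gene hspa8 (ENSDARG00000068992, Hsc70) had 6217 and 6743 CPM with vehicle and 6379.9 and 6730.3 CPM with lipofermata. Both groups covered the same range, and the log2 fold change was 0.02 (95% interval -0.34 to 0.37, adjusted p = 0.95). With total-count scaling it was 0.41 and passed (adjusted p = 0.011), close to the shift of the median gene.
The stress-inducible gene hsp70l (ENSDARG00000055723), known in zebrafish as a heat reporter, was at 3.66 and 0.817 CPM with vehicle and at 7.50 and 7.12 CPM with lipofermata. Both lipofermata libraries exceeded both vehicle libraries, and the log2 fold change was 1.63 (SE 0.48, adjusted p = 0.031 by edgeR's quasi-likelihood test). Its size rests on the vehicle library used: it was 3.16 without vehicle replicate 1 and 0.997 without vehicle replicate 2, and passed both times.
The inducible genes hsp70.1, hsp70.2 and hsp70.3 lie next to each other in the RefSeq annotation and their groups overlapped. Counts of hsp70.2 (ENSDARG00000092362) were 111 and 19 with vehicle and 164 and 84 with lipofermata, which is 6.15, 1.55, 8.195 and 4.601 CPM in that order. The library values of hsp70.1 were 2.55, 0.98, 2.45 and 1.81 CPM and those of hsp70.3 were 7.32, 4.08, 7.90 and 5.26 CPM. In each gene vehicle replicate 2 was the lowest library. Their log2 fold changes were 0.23 (hsp70.1), 0.69 (hsp70.2) and 0.19 (hsp70.3), with adjusted p = 0.78, 0.35 and 0.72. The log2 fold change of hsp70.2 was 2.05 without vehicle replicate 1 and 0.06 without vehicle replicate 2. With no filter hsp70.2 passed at 0.70 (adjusted p = 0.085 by edgeR's quasi-likelihood test). These copies are alike in sequence, so reads may be split between them.
The gene hspa14 (ENSDARG00000058030) encodes an Hsp70-like partner of the J protein Dnajc2, with which it forms the ribosome-associated complex in mammals. It went from 15.5 and 11.6 CPM to 21.1 and 22.2 CPM, a log2 fold change of 0.67 (SE 0.18, adjusted p = 0.024 by edgeR's quasi-likelihood test). The gene dnajc2 (ENSDARG00000070477) went from 6.49 and 7.68 CPM to 13.8 and 11.9 CPM, a log2 fold change of 0.86 (SE 0.21, adjusted p = 0.015 from the same test). The groups did not overlap in either gene. Without lipofermata replicate 1 neither passed (hspa14, adjusted p = 0.10; dnajc2, adjusted p = 0.14), and without lipofermata replicate 2 hspa14 did not (adjusted p = 0.15).
Among co-chaperones of Hsp70 outside the name rule, a list also drawn up with earlier results known, more genes rose than fell. Of 13 tested, 7 rose (53.8%, beside 16.6% of all genes) and 6 did not pass, and the median was 0.45 on the log2 scale. The gene tomm34, for a protein that binds mitochondrial precursors in the cytosol, rose by 1.28, sil1, an exchange factor of the ER, by 0.73, grpel1, the exchange factor of Hspa9, by 0.70, and gak, an uncoating factor of clathrin vesicles, by 0.66. The ubiquitin ligase gene stub1 (CHIP), which marks clients of Hsp70 for degradation, had 0.04 and did not pass. With lipofermata replicate 1 left out, 4 of the list rose, without lipofermata replicate 2, 3 did, when sil1 (0.65, adjusted p = 0.13) was among those lost. The value of tomm34 ran from 0.88 to 1.93 over the alternatives, the highest without vehicle replicate 1.

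The members of the Hsp70 class that fell are divergent in sequence from the classical chaperones. The gene hspa12b (ENSDARG00000030307), known for its expression in endothelial cells, was at 17.1 and 16.9 CPM with vehicle and at 6.15 and 5.75 CPM with lipofermata. The groups were far apart, with a log2 fold change of -1.51 (SE 0.19, adjusted p = 5.3e-04 by edgeR's quasi-likelihood test). Its relative hspa12a (ENSDARG00000070603) went from 4.21 and 4.16 CPM to 1.499 and 1.21 CPM, a log2 fold change of -1.62 (SE 0.39, adjusted p = 0.012 from the same test).
The 25 endothelial markers summed to 1118 and 985 CPM with vehicle and to 316 and 303 CPM with lipofermata. The endothelial receptor gene kdrl fell by 1.63. Counts of hspa12b were 5.14% and 5.25% of those of kdrl with vehicle, and 5.64% and 5.61% with lipofermata, a log2 difference of 0.11 (SE 0.02). Against cdh5, the cadherin of endothelial junctions, hspa12b stood at 10.54% and 13.5% with vehicle and at 14.2% and 13.03% with lipofermata, and these groups overlapped. The log2 difference against cdh5 was 0.19 (SE 0.19), while the ratio to kdrl was higher in both lipofermata libraries. Both markers were chosen after their values were seen. Log2 fold changes of the 25 endothelial markers ran from -3.39 to 1.59, so other markers would give other ratios. The part of endothelial cells in the fall of hspa12b was not tested.

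Of 12 tested mitochondrial members 3 rose (25%), 2 fell (16.7%) and 7 did not pass, beside 16.6% and 16.9% of all genes. The chaperonin gene hspd1 rose, and its partner hspe1 and the Hsp70 gene hspa9 came close to the threshold. The gene hspd1 (ENSDARG00000056160), for Hsp60, had 266 and 279 CPM with vehicle and 396 and 395 CPM with lipofermata, 1.45-fold higher and with a gap between groups far wider than the spread within them. The log2 fold change was 0.54 (SE 0.14, adjusted p = 0.020 by edgeR's quasi-likelihood test). Its neighbour hspe1 (ENSDARG00000056167), for the lid protein Hsp10, had 138 and 162 CPM with vehicle and 202 and 183 CPM with lipofermata, a log2 fold change of 0.36 (SE 0.15, adjusted p = 0.106). It passed with DESeq2's size factors (adjusted p = 0.095), the DESeq2 test (0.077), limma voom (0.083), no filter (0.092) and total-count scaling (0.0047). With a filter at 0.5 CPM (0.105) it did not. It passed without vehicle replicate 2 (0.48 on the log2 scale). Without vehicle replicate 1 (0.26), lipofermata replicate 1 (0.29) or lipofermata replicate 2 (0.43) it did not. The ratio of hspd1 to hspe1 counts was 193% and 172% with vehicle and 196% and 216% with lipofermata (log2 difference 0.18, SE 0.11, exact permutation p = 0.333, the smallest possible), higher in both lipofermata libraries. Without lipofermata replicate 1 hspd1 did not pass (0.54, adjusted p = 0.22), nor without lipofermata replicate 2 (0.54, adjusted p = 0.20).
The gene hspa9 (ENSDARG00000003035), for the Hsp70 of the mitochondrial matrix, had 325 and 291 CPM with vehicle and 382 and 403 CPM with lipofermata. The groups did not overlap, and the log2 fold change was 0.35 (95% interval 0.02 to 0.67, adjusted p = 0.108). It passed under DESeq2's size factors (adjusted p = 0.099), the DESeq2 test (0.060), limma voom (0.080) and total-count scaling (0.0069). With a filter at 0.5 CPM (0.107) or no filter (0.101) it did not. It passed without vehicle replicate 1 (0.44 on the log2 scale). Without vehicle replicate 2 (0.27), lipofermata replicate 1 (0.39) or lipofermata replicate 2 (0.31) it did not.
Mitochondrial J proteins went both ways. The paralogs dnajc11a and dnajc11b, for a protein of the mitochondrial membrane complex that shapes cristae, both rose. The gene dnajc11b (ENSDARG00000102696) went from 3.33 and 3.67 CPM to 6.60 and 9.31 CPM, a log2 fold change of 1.19 (SE 0.29, adjusted p = 0.014 by edgeR's quasi-likelihood test), and was 0.92 and did not pass without lipofermata replicate 2 (adjusted p = 0.17). The gene dnajc11a went from 42.2 and 38.9 CPM to 49.4 and 54.4 CPM (0.35, adjusted p = 0.092 from the same test). It did not pass with DESeq2 (adjusted p = 0.18), no filter (0.10), or without vehicle replicate 2 (0.15), lipofermata replicate 1 (0.27) or lipofermata replicate 2 (0.47). The gene dnaja3a, for the matrix J protein Tid1, fell from 149 and 188 CPM to 123 and 130 CPM (-0.42, adjusted p = 0.079 from the same test). With total-count scaling it was -0.02, and the call was lost without vehicle replicate 2 (-0.24, adjusted p = 0.24), lipofermata replicate 1 (adjusted p = 0.43) or lipofermata replicate 2 (adjusted p = 0.30). The import motor genes dnajc15 (0.31) and dnajc19 (0.04) did not pass.
Outside the name rule, 20 genes of mitochondrial protein import and quality control were tested, from a list drawn up with earlier results known. Among them 9 rose (45%), 1 fell (5%) and 10 did not pass, beside 16.6% and 16.9% of all genes. The median was 0.32 on the log2 scale. The matrix protease gene lonp1 went from 37.6 and 19.8 CPM to 77.7 and 83.4 CPM (1.48), the import motor gene timm44 rose by 1.01, phb, for prohibitin, by 0.99, the protease gene clpp by 0.72 and trap1, the mitochondrial Hsp90, by 0.67. The gene clpxb, for the unfoldase partner of Clpp, fell by 0.45, a call lost with total-count scaling or when either lipofermata library was left out. Without lipofermata replicate 1 or 2, 6 of the list rose and 0 fell each time, and without vehicle replicate 1, 9 rose and 5 fell.

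**Figure D3:**
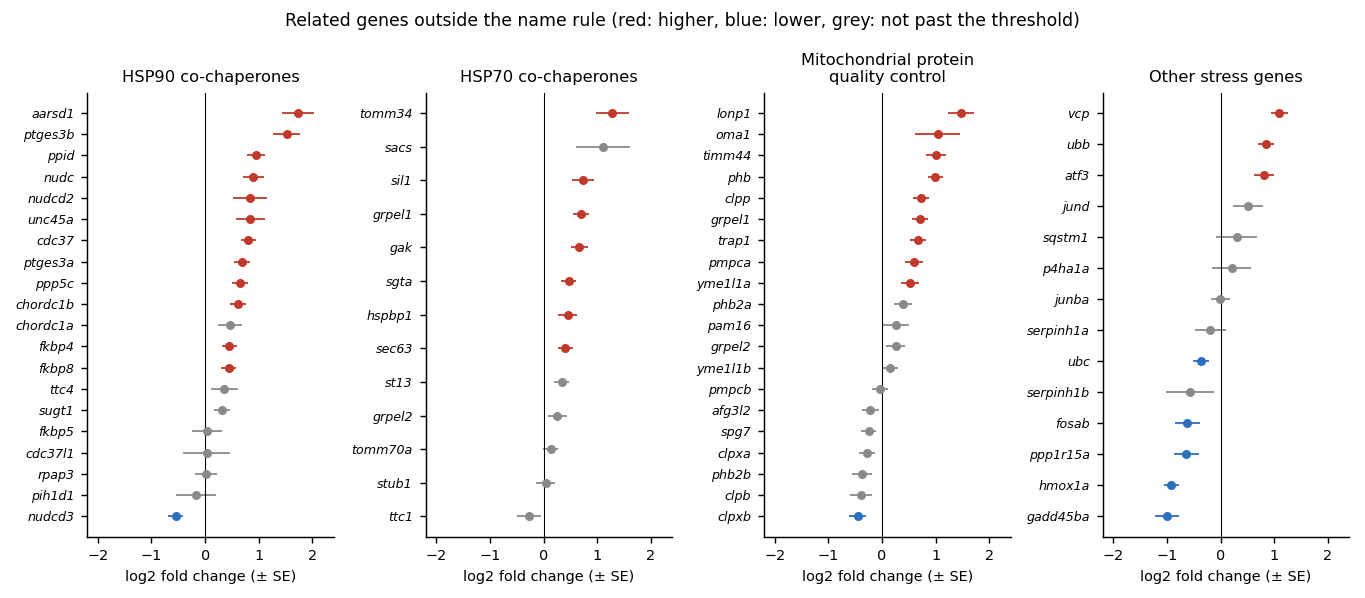
Log2 fold change (x axis, lipofermata against vehicle, ± SE) of the tested genes of 4 lists of related genes outside the name rule. Red points rose, blue points fell and grey points did not pass. In the list of Hsp90 co-chaperones 12 of 20 rose, in that of Hsp70 co-chaperones 7 of 13, in mitochondrial protein quality control 9 of 20, and among other stress genes 3 of 14, with 5 lower.

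The heat shock factors did not rise. The gene hsf1 (ENSDARG00000008818), for the main factor of the heat shock response, had 9.37 and 10.1 CPM with vehicle and 9.14 and 8.44 CPM with lipofermata, a log2 fold change of -0.15 (95% interval -0.61 to 0.31, adjusted p = 0.65) that was 0.24 when scaled by total counts. The gene hsf2 (ENSDARG00000053097), for a factor with roles in development that also binds with Hsf1, fell from 77.9 and 80.0 CPM to 36.8 and 41.1 CPM. The replicates of each group lay close together. The log2 fold change was -1.02 (SE 0.14, adjusted p = 8.2e-04 by edgeR's quasi-likelihood test), with -0.63 when scaled by total counts (adjusted p = 0.015). Counts of hsf2 were 831% and 790% of those of hsf1 with vehicle and 402% and 488% with lipofermata. No counts were found for hsf4, hsf5 and hsf2bp in any library.
The gene dnajb1b (ENSDARG00000041394), a J protein gene of the stress response, fell, with 8.43 and 3.35 CPM in the vehicle libraries and 2.65 and 2.03 CPM in the lipofermata libraries. Its log2 fold change was -1.35 (SE 0.43, adjusted p = 0.043 by edgeR's quasi-likelihood test). It was -0.51 without vehicle replicate 1 (adjusted p = 0.45) and -1.17 without lipofermata replicate 2 (adjusted p = 0.17). With total-count scaling it was -0.99 (adjusted p = 0.14). Its paralog dnajb1a had 14.7 and 12.6 CPM with vehicle and 15.8 in both lipofermata libraries (0.21, adjusted p = 0.43). Counts of dnajb1b were 57.4% and 26.6% of those of dnajb1a with vehicle and 16.8% and 12.9% with lipofermata (log2 difference -1.41, SE 0.59, exact permutation p = 0.333).
Of 14 tested other genes that respond to heat or to protein damage, 3 rose, 5 fell and 6 did not pass. These shares are 21.4% and 35.7%, beside 16.6% and 16.9% of all genes. The median was -0.10 on the log2 scale. The segregase gene vcp, which pulls ubiquitinated proteins out of membranes and complexes, went from 206 and 170 CPM to 411 and 393 CPM (1.096). The ubiquitin gene ubb rose by 0.84 and the transcription factor atf3 by 0.81. The heme oxygenase gene hmox1a went from 78.3 and 67.9 CPM to 39.9 and 37.5 CPM (-0.92). The growth arrest gene gadd45ba fell by 0.998, and ppp1r15a (-0.64), fosab (-0.62) and the ubiquitin gene ubc (-0.37) were also called lower. The calls of vcp, ubb, atf3, hmox1a and gadd45ba held under every alternative, while those of ppp1r15a and fosab were lost with total-count scaling (-0.23 and -0.22), without vehicle replicate 2 (-0.17 and -0.36) and without lipofermata replicate 1 (-0.58 and -0.37). The call of ppp1r15a was also lost without lipofermata replicate 2 (-0.71) and that of fosab with the DESeq2 test (-0.60). Alternatives were not tabulated for ubc. The collagen chaperone gene serpinh1b, a target of heat shock factor, had -0.57 and did not pass. With lipofermata replicate 1 left out, 3 of the list rose and 2 fell, and without vehicle replicate 1, 5 rose and 5 fell.
Some members differed widely between the vehicle libraries. The tested members with the widest gaps between the vehicle libraries were hsp70.2 (1.70 on the log2 scale, with 0.5 CPM added), hsp70l (1.66), hsp90aa1.2 (1.33), dnajb1b (1.21) and hsp70.1 (1.04), all higher in replicate 1. Over all 72 tested members, the signed difference between vehicle replicates 1 and 2, in which gaps of opposite sign cancel, had a median of 0.09. In replicate 1, 43 members were higher. Of all 14925 genes tested, 7515 were higher in replicate 1, and their median difference was 0.004. Vehicle replicate 1 also had the higher level of muscle markers, whose sum was 47.4 CPM there. In vehicle replicate 2 and the lipofermata libraries it was 13.4, 7.45 and 10.4 CPM. Macrophage markers likewise summed to 149 CPM there, and to 44.1, 49.0 and 55.5 CPM in the others in the same order. Pancreas markers were lowest there, at 4605 CPM beside 10370, 11880 and 5369 CPM. The part of these differences was not tested.

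**Figure D4:**
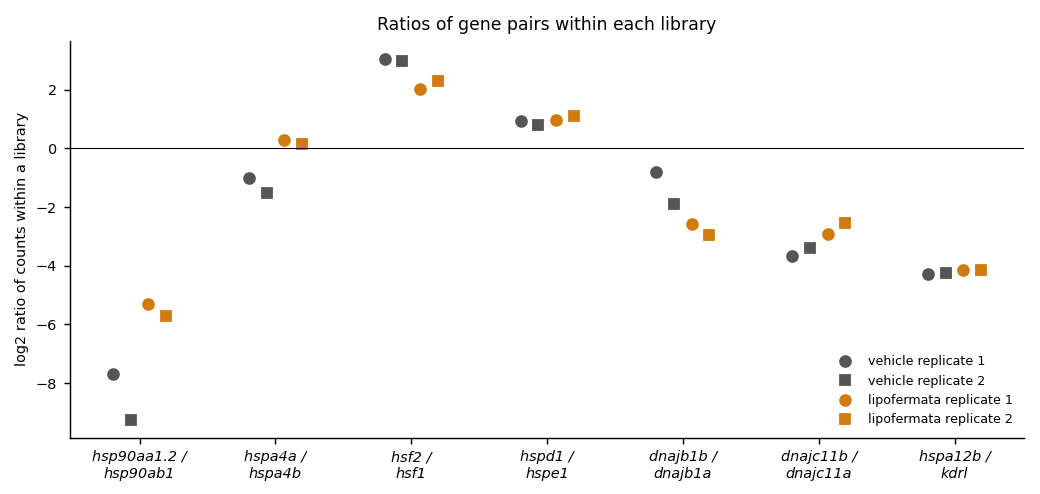
Log2 ratio of the counts of 7 gene pairs within each library (y axis), for vehicle (grey) and lipofermata (orange), with circles for replicate 1 and squares for replicate 2. The ratios hspa4a to hspa4b, hsp90aa1.2 to hsp90ab1 and dnajc11b to dnajc11a are higher with lipofermata, and hsf2 to hsf1 and dnajb1b to dnajb1a lower. The ratio hspa12b to kdrl lies between 5.14% and 5.64% and is higher in both lipofermata libraries.

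Small heat shock proteins hold unfolded proteins without using ATP, and 9 members carry such a name. Only 3 had enough counts to be tested, of which 1 rose and 1 fell (33.3% each, beside 16.6% and 16.9% of all genes). Without vehicle replicate 1, 2 rose. The gene hspb8 (ENSDARG00000058365), which works with Bag3 in the removal of damaged proteins by autophagy, went from 42.2 and 38.0 CPM to 59.7 and 61.9 CPM, a log2 fold change of 0.60 (SE 0.14, adjusted p = 0.011 by edgeR's quasi-likelihood test). It did not pass without lipofermata replicate 2 (0.57, adjusted p = 0.11). Its partner bag3 (ENSDARG00000039486) had 9.87 and 11.8 CPM with vehicle and 11.4 and 12.5 CPM with lipofermata, and these ranges overlapped (0.15, 95% interval -0.29 to 0.58, adjusted p = 0.63).
The gene hspb1 (ENSDARG00000041065), for Hsp27, fell from 3.99 and 5.39 CPM to 1.70 and 3.07 CPM, a log2 fold change of -0.97 (SE 0.39, adjusted p = 0.091 by edgeR's quasi-likelihood test). It did not pass with DESeq2 (adjusted p = 0.23) or total-count scaling (-0.58, adjusted p = 0.27), nor without vehicle replicate 2 (adjusted p = 0.20) or lipofermata replicate 1 (-0.60, adjusted p = 0.48). The gene hspb6 had 6, 0, 20 and 10 counts (adjusted p = 0.16). The cardiac and muscle gene hspb7 had 16 and 4 counts with vehicle and 2 and 2 with lipofermata, and was not tested.
Of 7 tested bag genes, which release clients from Hsp70 or link it to other pathways, bag2 alone passed. This is 14.3% higher, near the 16.6% of all genes. The gene bag2 encodes an inhibitor of the ubiquitin ligase CHIP and went from 4.21 and 3.84 CPM to 7.65 and 7.01 CPM (ENSDARG00000035005, log2 fold change 0.86, SE 0.26, adjusted p = 0.037 by edgeR's quasi-likelihood test). It did not pass with DESeq2 (adjusted p = 0.12) or without lipofermata replicate 1 (adjusted p = 0.22) or 2 (adjusted p = 0.13). The exchange factor gene bag1 (0.25) and bag6 (0.34), which guides tail-anchored proteins, did not pass.

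J proteins are the most numerous members, with 46 genes of which 41 were tested. Of these 11 rose (26.8%), 5 fell (12.2%) and 25 did not pass, beside 16.6% and 16.9% of all genes. The median was 0.21 on the log2 scale. With either lipofermata library left out, 4 genes of class C and 0 of classes A and B rose. Over the same classes, 1 gene fell each time, of class B without lipofermata replicate 1 and of class C without lipofermata replicate 2. Among the class A genes, dnaja1 (ENSDARG00000030972), for a general partner of cytosolic Hsp70, went from 5.71 and 4.90 CPM to 9.64 and 9.70 CPM. Both lipofermata libraries lay near the same value and above vehicle (log2 fold change 0.86, SE 0.23, adjusted p = 0.023 by edgeR's quasi-likelihood test). It did not pass without lipofermata replicate 1 or 2 (adjusted p = 0.12 each). The related genes dnaja2a (0.03) and dnaja2b (-0.12) did not pass.
J protein genes assigned to the nucleus, the spliceosome or the ribosome were mostly higher, 4 of 5 tested, beside 16.6% of all genes. This small grouping was made with earlier results known. It does not count other members with such roles, such as hspa14, which rose, hsf2, which fell, and hsf1, which did not pass. The gene dnajc8 (ENSDARG00000059373), for a factor associated with the spliceosome, went from 12.8 and 12.7 CPM to 20.6 and 23.0 CPM, a log2 fold change of 0.77 (SE 0.17, adjusted p = 0.0078 by edgeR's quasi-likelihood test). The gene dnajc21 (ENSDARG00000105195), for a factor that matures the large ribosomal subunit, went from 5.38 and 4.33 CPM to 10.1 and 7.78 CPM (0.88, SE 0.26, adjusted p = 0.033 from the same test), and did not pass without lipofermata replicate 1 (adjusted p = 0.28). The gene dnajc9, for a chaperone of histones H3 and H4, went from 6.82 and 3.84 CPM to 11.5 and 8.27 CPM (0.87, adjusted p = 0.059 from the same test). Its value was 1.37 without vehicle replicate 1, and the call was lost without vehicle replicate 2 (0.54, adjusted p = 0.12), without lipofermata replicate 1 (0.62, adjusted p = 0.35) or with DESeq2 (adjusted p = 0.11). The other gene of this kind that rose is dnajc2, described above, and dnajc17 had 0.76 and did not pass (adjusted p = 0.14).
Of 10 tested members that reside in the ER, 3 rose (30%), 1 fell (10%) and 6 did not pass, beside 16.6% and 16.9% of all genes. The gene dnajc10 (ENSDARG00000074727), for a J protein that reduces disulfides in the ER, went from 15.5 and 9.55 CPM to 20.5 and 24.2 CPM (log2 fold change 0.82, SE 0.22, adjusted p = 0.023 by edgeR's quasi-likelihood test). It was 1.23 without vehicle replicate 1 and 0.53 without vehicle replicate 2, and the call was lost without lipofermata replicate 2 (adjusted p = 0.14). The gene dnajc1 rose by 0.48 (adjusted p = 0.053) and dnajb12a, a membrane J protein of ER quality control, by 0.41 (adjusted p = 0.066). Neither passed without lipofermata replicate 1 (dnajc1, adjusted p = 0.18; dnajb12a, adjusted p = 0.37) or lipofermata replicate 2 (dnajc1, adjusted p = 0.27; dnajb12a, adjusted p = 0.24). Without vehicle replicate 2, dnajc1 was 0.30 (adjusted p = 0.15), and dnajb12a did not pass with DESeq2 (adjusted p = 0.19). The ER Hsp70 relative hspa13 had 23.6 and 29.0 CPM with vehicle and 23.8 and 33.0 CPM with lipofermata (0.11, adjusted p = 0.70). The ER gene that fell was dnajc16, from 6.26 and 5.23 CPM to 2.099 and 3.01 CPM (-1.17, adjusted p = 0.025), a call lost with total-count scaling (-0.80, adjusted p = 0.10) or without lipofermata replicate 1 (-0.93, adjusted p = 0.19).
Other J protein genes that changed were dnajc25, which rose from 8.54 and 4.41 CPM to 12.6 and 13.5 CPM (0.98, adjusted p = 0.028), dnajc24 and the mitochondrial dnajc4. The rise of dnajc25 was 1.57 without vehicle replicate 1 and 0.61 without vehicle replicate 2, and it fell just short without lipofermata replicate 2 (adjusted p = 0.10). The gene dnajc24, for a factor in the making of diphthamide, the modified histidine of elongation factor 2, had 48 and 20 counts with vehicle and 12 and 14 with lipofermata (-1.66, SE 0.55, adjusted p = 0.051). It did not pass with DESeq2 (adjusted p = 0.15), total-count scaling (0.11), without vehicle replicate 1 (0.29), lipofermata replicate 1 (0.26) or lipofermata replicate 2 (0.16). The fall of dnajc4 (-0.45, adjusted p = 0.098) stood just inside the threshold and was lost under 9 of 11 alternatives, at adjusted p = 0.10 with DESeq2's size factors and 0.84 with total-count scaling.
Of the members, the 4 tested genes for J proteins of synaptic and clathrin-coated vesicles did not pass. Outside the name rule, gak rose (0.66), as given above. The genes dnajc5ab, dnajc5ga and dnajc5gb, for cysteine string proteins, had log2 fold changes of 0.14, 0.36 and 0.31. The auxilin gene dnajc6 had 6, 12, 32 and 28 counts (1.31, adjusted p = 0.17), with groups that did not overlap.

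The 21 members that were not tested had few reads in this tissue. No counts were found in any library for 9 of them (hspa12a.1, hspa12a.2, hspb2, hspb3, hspb9, hsf2bp, hsf4, hsf5 and dnajb13), and the other 12 had totals of 2 to 30 counts over the 4 libraries. They include hspa1b (2, 2, 10 and 0 counts), hspa8b (6, 0, 22 and 2 counts) and hspa4l (0, 0, 12 and 0 counts), in each of which lipofermata replicate 1 had the most counts, and dnajb4 (6, 8, 2 and 4 counts). A count of 0 allows up to 3 counts in a library, for counting error only, and at this depth a change in these genes was not detectable.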

How the data were processed

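Polyadenylated RNA of 4 pools of zebrafish livers was sequenced as stranded, paired reads. The submitters' notes name HISAT2, featureCounts and the build GRCz11. Tool versions, annotation, strand option and treatment of multi-mapped reads were not given in the sources used here. Values deposited by the authors are raw counts, whole numbers without normalization. The replicate chi-square per degree of freedom was 23.7 for vehicle and 13.8 for lipofermata, so no libraries were duplicates.
Tests used edgeR 4.0.16 under R 4.3.3 (filterByExpr with a minimum count of 10, TMM, quasi-likelihood F test, treatment as the only term, adjusted p under 0.1, the study's false discovery rate). SE is the log2 fold change divided by the square root of F, and 95% intervals use the fit's degrees of freedom. Alternatives were DESeq2 1.42.0 (its size factors, its Wald test), limma 3.58.1 with voom, total counts, a filter at 0.5 CPM, no filter, a replicate block, and leaving out each library. Plots were made with matplotlib 3.10.9 (Python 3.11.15).
The members and lists were chosen with earlier results of these data known. A name in a list stands for its row with the most counts. Full statistics were given for a fixed list of well-known members and for up to 3 called members per class and direction with the smallest p, and for lists outside the rule up to 4 called genes per direction. Gene pairs set against each other, list genes beyond this rule and members singled out for their gaps were chosen after their values were seen. Locations in the cell are from textbook knowledge. Neighbouring genes are from RefSeq (GRCz12tu), where 92 of 93 member names matched. No sequences or coordinates are given. All columns of samples were used.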

Additional observations from a re-analysis of the deposited data

How the results depend on the processing

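No called member reversed under any alternative. Leaving out each library in turn gave 8 to 28 members higher and 4 to 8 lower, beside 1128 to 3115 of all genes higher and 1284 to 2898 lower. By class, leaving out a library gave 1 to 2 Hsp110 genes higher, 1 to 5 Hsp70 genes higher, 0 to 2 small heat shock genes higher and 0 to 1 lower, 0 to 2 chaperonin genes higher, 0 to 1 DNAJA genes higher and 0 to 1 lower, 0 to 2 DNAJB genes higher and 0 to 1 lower, 4 to 9 DNAJC genes higher and 0 to 3 lower, 0 to 3 bag genes higher, and 0 to 2 of stip1 and ahsa1 higher. In the lists outside the rule it gave 6 to 14 Hsp90 co-chaperones higher and 0 to 2 lower, 3 to 8 Hsp70 co-chaperones higher, 6 to 9 mitochondrial quality control genes higher and 0 to 5 lower, 3 to 5 other stress genes higher and 2 to 5 lower, 2 to 3 regulators of heat shock factors higher and 1 to 2 lower, and 1 to 5 of the 6 genes left out and hspbp1 higher. With 1 library in a group, that library is assumed to vary like the other group.
Scaled by total counts, 41 members were higher and 3 lower, and 5092 of all genes higher and 1182 lower. Of all calls, 81.2% were then higher. By class this gave 2 Hsp110, 5 Hsp70, 2 chaperonin, 2 DNAJA, 5 DNAJB, 17 DNAJC and 4 bag genes higher, with 0 small heat shock, 0 DNAJA, 0 DNAJB and 0 DNAJC genes lower. In the lists it gave 11 Hsp70 co-chaperones and 6 regulators higher, 0 Hsp90 co-chaperones and 0 mitochondrial genes lower, 2 other stress genes lower and 1 regulator lower. The DESeq2 test called 0 small heat shock genes lower, 2 chaperonin genes higher, 0 DNAJB genes higher, 1 DNAJC gene lower and 0 bag genes higher. DESeq2's size factors, limma voom and no filter each called 2 chaperonin genes higher. At least 2-fold, 4 members and 998 genes were higher, and 1286 genes lower.
With the replicate number as a block, 25 members rose and 10 fell, with 2 Hsp110, 4 Hsp70, 2 chaperonin and 2 bag genes higher, and all 29 calls were kept. The block also called hsp70.2 (0.87, adjusted p = 0.073), hspe1 (0.36, adjusted p = 0.068) and hspa9 (0.35, adjusted p = 0.068) higher. The numbers do not mark a known pairing. Same-numbered libraries deviated together with a correlation of 0.05 over the 14925 genes tested and 0.37 over the 72 tested members. The cause of these shifts was not tested.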

Other observations

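A list of the 6 genes left out of the name match and of hspbp1, which does not match the pattern, includes partners of the ER chaperone Hspa5. The gene hspbp1 is also counted among the Hsp70 co-chaperones above. Of these 7 genes, 4 rose (57.1%, beside 16.6% of all genes) and 3 did not pass by edgeR's quasi-likelihood test. The J protein gene dnajb11 went from 38.9 and 23.7 CPM with vehicle to 72.7 and 69.6 CPM with lipofermata (log2 fold change 1.18). The genes dnajc3b (0.69) and dnajc3a (0.58), for a J protein of the ER lumen, and hspbp1 (0.45), an exchange factor of Hsp70, rose as well. Of these, dnajb11 alone passed with any library left out. The gene hspa5 had 0.38 and did not pass (adjusted p = 0.20).
Of 12 tested genes on a list drawn up for regulators of heat shock factors, 3 rose, 2 fell and 7 did not pass. These shares are 25% and 16.7%, beside 16.6% and 16.9% of all genes. The deacetylase gene sirt1, whose product prolongs binding of heat shock factor 1 to DNA in mammals, fell by 0.92 and passed under every alternative. The acetyltransferase gene ep300b fell by 0.57, and did not pass with total-count scaling or without vehicle replicate 2, lipofermata replicate 1 or lipofermata replicate 2. The genes that rose were vcp (1.096), trap1 (0.67) and hsbp1b (0.45), which encodes a binding protein of heat shock factor 1. Of these, vcp and trap1, the mitochondrial Hsp90, were already counted in lists above. The gene hsbp1b did not pass with DESeq2 or without vehicle replicate 1, lipofermata replicate 1 or lipofermata replicate 2.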
